A study of Saccharomyces cerevisiae with 12 samples.

Results

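In budding yeast mother cells collected after 24 h and 48 h of ageing, the read signal of long chromosome arm segments was lower than in young cells, and the 250 windows described here are those in which it was lowest. They come from 1507 eligible arm windows of 25 kb, placed every 5 kb, in a table of 2441 windows. A window was eligible when its middle lay more than 50 kb from both chromosome ends and from the centromere, on chromosomes II, IV, V, VII, VIII, X, XI, XIII, XIV, XV and XVI. The members were selected on measured values: for each window the 8 log2 ratios of aged to log phase signal (24 h and 48 h, each against the log phase DNA of the same genotype) were averaged, and the 250 lowest means were kept. The ratios of aged to log phase signal in these windows are therefore given as a description.

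The DNA came from aged diploid cells of 4 genotypes (wild type, and mutants without SPT3, RAD52 or SAC3), each at 24 h and at 48 h, set against log phase cells of the same genotype, with 1 library per genotype and time, 12 in all. All strains carried the mother enrichment program, in which estradiol makes new daughter cells inviable so that biotin-labelled mothers can be recovered at a known age, and all grew in the rich medium YPD. Estradiol was given later to sac3 and rad52 cultures than to wild-type and spt3 cultures, so equal hours need not mean equal numbers of divisions. No group has a replicate. Counted over a tiling without overlap, the libraries had 5261601 to 12147987 reads. The median member window held 5934 to 18738 reads in a library, which gives a ratio of aged to log phase signal a counting error of 1.13% to 1.55%. This error covers counting only, not the variation between cultures. As a check of the log phase labels only, windows holding the deleted gene stood at a median of 0.946 (SPT3), 0.959 (RAD52) and 0.867 (SAC3) of wild type in their own mutants. Complete loss would give 0.959, 0.943 and 0.844. The other mutants had 0.984 to 1.00, 0.986 to 0.993 and 1.02 to 1.04 there. Single members reached down to 0.932 in spt3, 0.951 in rad52 and 0.923 in sac3, so only the SAC3 value lay outside their range. Labels of aged libraries were not checked.

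Read depth along a chromosome reports the average number of copies of each segment. In a growing culture it is slightly higher near replication origins (ARS elements, where DNA copying starts) than between them, because part of the cells are in S phase, and it also varies with base composition through shearing and amplification of the library. Loss of SPT3, a subunit of the SAGA coactivator, of SAC3, the scaffold of the TREX-2 mRNA export complex, or of RAD52, the central homologous recombination protein, is known for keeping circles of ribosomal DNA from building up in old mothers. The members all lie outside the ribosomal DNA, on other chromosomes.

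Sequences are shown for the lowest member windows and for the highest eligible windows because base composition, a property the choice did not use, differed between members and other windows. Each is the 100-base block, from a tiling of its window, whose GC content was closest to that of the whole window, read 5′ to 3′ on the top strand of the R64 RefSeq sequence, with G and C in capitals. All 5 blocks are wholly coding. The first lies in RAD28 (chrIV:502501-502600, from the lowest window of all), the second in PEX19 next to UBC9 (chrIV:336901-337000) and the third in TOM1 (chrIV:1372301-1372400). The last 2, from windows whose mean ratio was 1.45 in both, lie in STE24 (chrX:642101-642200) and UBP3 (chrV:470601-470700).
RAD28 block, member: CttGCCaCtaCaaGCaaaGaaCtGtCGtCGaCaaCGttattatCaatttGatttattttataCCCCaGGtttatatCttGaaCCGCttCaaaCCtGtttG
PEX19 block, member: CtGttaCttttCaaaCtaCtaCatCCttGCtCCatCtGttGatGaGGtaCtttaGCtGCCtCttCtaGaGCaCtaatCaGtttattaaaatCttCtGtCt
TOM1 block, member: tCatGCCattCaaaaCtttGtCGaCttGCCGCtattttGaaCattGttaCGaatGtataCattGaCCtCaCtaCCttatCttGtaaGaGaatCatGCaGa
STE24 block, not a member: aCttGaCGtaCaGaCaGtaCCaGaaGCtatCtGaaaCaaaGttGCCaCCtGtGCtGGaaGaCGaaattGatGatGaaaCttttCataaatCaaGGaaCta
UBP3 block, not a member: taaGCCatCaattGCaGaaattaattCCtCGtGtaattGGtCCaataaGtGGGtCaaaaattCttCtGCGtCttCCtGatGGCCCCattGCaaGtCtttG
The member blocks hold 37% GC each, against 39% and 41% in the blocks from the highest windows, and the windows they stand for hold 36.6%, 36.6% and 37.5% GC, against 39.0% and 41.1%. The lowest window also holds 1 annotated origin, ARS450 (chrIV:505343-505584), in noncoding DNA to the right of PST2, and it is printed whole with its exact match to the ARS consensus sequence in capitals.
ARS450: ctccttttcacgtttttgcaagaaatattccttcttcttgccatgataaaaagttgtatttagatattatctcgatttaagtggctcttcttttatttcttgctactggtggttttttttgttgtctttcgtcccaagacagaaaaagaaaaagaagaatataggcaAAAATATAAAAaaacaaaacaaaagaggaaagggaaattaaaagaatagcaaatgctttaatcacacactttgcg
This origin had 30.6% GC. An exact match to the consensus on either strand was found in 16 of the 52 annotated origins inside member windows (30.8%), and in 61 of the 200 inside eligible windows (30.5%), so the members did not stand out in it. A match is a description of letters, not evidence of use.

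The differences were small. The members' median of the mean ratio was 0.935, against 1.02 in the 1257 other eligible windows, and the range of single members ran from 0.880 at chrIV:490001-515000 to 0.954 at chrII:605001-630000, the last window taken. The first window left out, chrIV:1100001-1125000, also had 0.954, so the limit of 250 cuts a continuous series of values. In 135 of the 250 members all 8 ratios were under 1. Over all eligible windows this held for 174, or 11.5%, and since the same ratios chose the members nothing is read from the difference. A further 80 members were under 1 in 7 libraries, 25 in 6, 9 in 5 and 1 in 4.

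By the median ratio to log phase, members were lowest in wild type. Set against the signal of the other eligible windows of the same library, they were lowest in sac3 at 48 h (0.757, against 0.770 in wild type at 48 h). At the earlier and the later age, wild-type members had median ratios of 0.902 and 0.900, against 1.01 at both times in the other eligible windows. The spt3 mutant had 0.940 and 0.921 in members, against 1.04 and 1.03 in the others. The sac3 mutant had 0.965 and 0.921, against 1.03 and 1.05. The rad52 mutant had 0.934 at 24 h but 0.978 at 48 h, against 1.01 at both times in the other windows. The rad52 48 h library was also the one whose ratios over all eligible windows correlated least with those of the other genotypes (r from 0.320 to 0.505, across windows that overlap). By the choice made on these ratios, all 250 members were under 1 in wild type at 48 h (55.1% of eligible windows were), where the highest was 0.981, whereas single members reached 1.07 in rad52 cells and 1.08 in sac3 cells at 48 h.

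**Figure D1:**
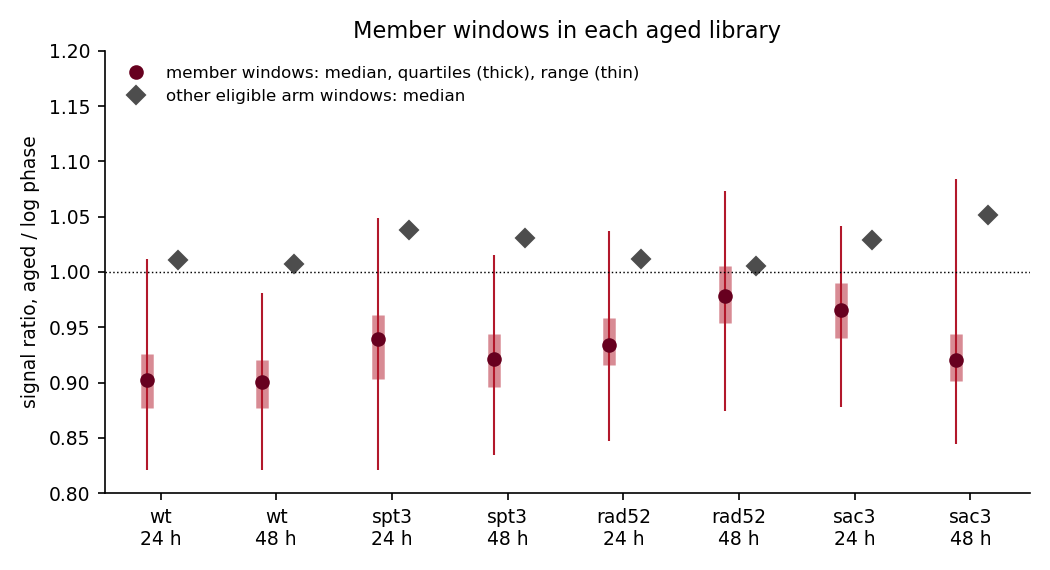
Ratio of aged to log phase signal in each of the 8 aged libraries, on an axis that does not start at 0. Circles are medians over the 250 member windows, thick bars the quartiles and thin lines the range; diamonds are medians over the 1257 other eligible arm windows. Member medians lie between 0.900 in wild type at 48 h and 0.978 in rad52 cells at 48 h, and every diamond lies above 1.

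To obtain values the choice had not used, the 250 lowest windows were chosen again from 3 genotypes and read in the genotype left out. Lists chosen without wild type had, read in wild type, median ratios of 0.911 at the earlier age and 0.907 at the later, against 0.992 and 0.990 over all eligible windows. Of these windows 225 and 244 were under 1, where the shares over eligible windows were 53.3% and 55.1%. For spt3 the medians were 0.952 and 0.935, with 210 and 235 windows under 1, against 43.3% and 45.5% of eligible windows. For sac3 they were 0.967 and 0.926, with 201 and 225 windows under 1, against 38.7% and 43.1%. For rad52 at 24 h the median was 0.940 with 227 windows under 1, against 50.1%, but at 48 h it was 0.988 with 145 under 1, against 48.7% of eligible windows. The windows left low by 3 genotypes were thus low in the other one in 7 of the 8 libraries by 0.051 or more in the ratio, and in rad52 cells at 48 h by 0.013. The lists shared 208 to 227 windows with the 250 members. With 1 library per genotype and time these values have no test.

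The members clustered along chromosomes. They merged into 36 stretches of 25 to 140 kb (median 50 kb), together 2085 of the 7975 kb covered by eligible windows, or 26.1%. Chromosome IV held 77 of the 250, out of its 266 eligible windows (28.9%), chromosome II 31 of 123 (25.2%), VIII 18 of 73 (24.7%), V 17 of 75 (22.7%) and X 22 of 109 (20.2%). Chromosomes XVI, XV and XI held few, with 6 of 150 (4%), 9 of 178 (5.06%) and 5 of 93 (5.38%). The other 3 chromosomes lay between 13.8% and 15.4%. Windows overlap by 20 kb with their neighbours and so share reads; a tiling of windows without overlap holds 55 members. In 23 stretches the median over the member windows was under 1 in all 8 libraries. At the edge of 6 stretches the next window was also below the limit of the list but was barred by its distance from a centromere or an end, so those stretches run on past the edge given here.

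The lowest stretch was chrIV:490001-625000 (23 windows, RPS11A to VTC5), and it begins where the centromere-proximal DNA of chromosome IV was barred. Its lowest window had a signal of 8818 at 24 h and 8915 at 48 h in aged wild type, against 10739 in log phase wild type. In spt3 cells it was 9289 and 9095, against 10684, in rad52 cells 9483 and 10475, against 10809, and in sac3 cells 9711 and 9396, against 10420. All 8 aged values lay below the log phase value of their genotype, by ratios of 0.821 and 0.830 in wild type, 0.869 and 0.851 in spt3, 0.877 and 0.969 in rad52 and 0.932 and 0.902 in sac3. This window holds RPS11A (ribosomal protein of the small subunit), REG1 (which directs the Glc7 phosphatase in glucose repression) and LYS14 (activator of lysine synthesis genes). Further along the stretch are TPI1 (triose phosphate isomerase of glycolysis), DBF4 (activator of the kinase that fires origins), RPS13 and RAD55 (a homologous recombination gene). It also spans the ENA sodium pump genes, a tandem array. The 7 members touching them had median ratios of 0.975 and 1.01 in rad52 cells and 0.861 and 0.898 in wild type. In spt3 cells they had 0.908 and 0.910, and in sac3 cells 0.969 and 0.919.

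The longest stretch, chrIV:230001-370000 (20 windows, YDL129W to STP4), was the second lowest. At its lowest window, chrIV:325001-350000, the ratios were 0.896 and 0.856 in wild type, 0.849 and 0.837 in spt3, 0.891 and 0.948 in rad52 and 0.965 and 0.895 in sac3. Here spt3 cells, not wild type, were lowest. The window carries ARS413 and the genes UBC9 (the SUMO-conjugating enzyme, at 337487 to 338070), RAD59 (a Rad52 relative in recombination), IDP1 (mitochondrial isocitrate dehydrogenase) and COX9 (a cytochrome oxidase subunit). UBC9 is 1 of the genes that the mother enrichment program flanks with recombination sites for removal in daughters, and all 5 windows that hold it whole are members. CDC20, the other such gene, lies whole in 4 windows on chromosome VII, all eligible, and 0 of them are members. Over all eligible windows 250 of 1507 were members. The windows of each gene overlap and share reads, so these counts compare 1 locus with 1 other. The part of the construct in the UBC9 windows was not tested.

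Chromosome IV held a further 3 of the 7 lowest stretches. At chrIV:1360001-1385000, in the stretch from GPI17 to TRS31, the ratios ran from 0.841 in wild type at 48 h to 0.982 in sac3 cells at 24 h. That window carries ARS439, TFB3 (a TFIIH subunit), GUK1 (guanylate kinase) and TSA2 (a peroxiredoxin). At chrIV:1020001-1045000, in the stretch from CCC2 to HNT2, all 8 ratios lay between 0.852 and 0.934, so that here the rad52 48 h value of 0.917 was not apart from the rest. It carries GCN2 (the kinase that senses uncharged tRNA) and ZIP1 (a protein of the synaptonemal complex), and no annotated origin. At chrIV:1180001-1205000, in the stretch from SWR1 to YDR365W-A, the ratios were 0.858 and 0.847 in wild type and up to 0.994 in sac3 cells at 24 h. It holds TRR1 (thioredoxin reductase), TRP4 (of tryptophan synthesis), SPC110 (a spindle pole body protein) and SEM1, which is shared by the proteasome and TREX-2.

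Outside chromosome IV, the lowest stretch was chrXIII:565001-675000 (15 windows, RIM13 to PFK2). Its lowest window, chrXIII:620001-645000 with HSC82 (an Hsp90 chaperone), SSO2 (a plasma membrane SNARE), GCV2 (of the glycine cleavage complex) and ARS1324, had ratios of 0.846 and 0.844 in wild type, 0.912 and 0.858 in spt3, 0.911 and 0.963 in rad52 and 0.963 and 0.903 in sac3. The same stretch held the lowest wild-type member at 48 h, chrXIII:600001-625000 with 0.821, and the glycolytic gene PFK2 and the RecQ helicase gene SGS1. On chromosome VII, the stretch from MSM1 to PMT6 varied little between libraries: at chrVII:860001-885000 the 8 ratios lay between 0.865 and 0.936, with log phase signals of 13931 to 14575 that were above the median of the other eligible windows. This window holds TDH3 (the main glyceraldehyde 3-phosphate dehydrogenase), BUB1 (a spindle checkpoint kinase) and TFG1 (a TFIIF subunit).

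The last 3 of the 10 lowest stretches were on chromosomes V, II and VIII. At chrV:415001-440000, with GLC7 (the type 1 protein phosphatase), RPS26B and ARS518, ratios ran from 0.869 to 0.936. At chrII:550001-575000, with CDC28 (the cyclin-dependent kinase of the cell cycle), SLI15 (the chromosomal passenger scaffold) and TYR1 (of tyrosine synthesis), the ratios were 0.967 and 0.957 in spt3, 0.912 and 0.978 in rad52 and 0.904 and 0.898 in sac3, against 0.827 and 0.839 in wild type. Every mutant was thus above wild type there, and this stretch also holds PGI1 and MCM7 (a subunit of the replicative helicase). At chrVIII:390001-415000, with RTT107 (a scaffold of replication repair) and ARS818, ratios ran from 0.876 to 0.952.

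The stretches with the lowest 48 h window of each mutant were picked for an extreme in 1 library. For spt3 it was chrIV:565001-590000 with 0.834, inside the lowest stretch. For rad52 it was the single member chrXI:480001-505000 (NTR2 to GMH1, with GCN3, a subunit of the eIF2B exchange factor), which had 0.847 and 0.874 in rad52 cells, 0.933 and 0.907 in wild type, 1.01 and 0.982 in spt3 and 0.903 and 1.06 in sac3. For sac3 it was chrXV:40001-65000 with 0.845. The lowest mean of that stretch (FRE7 to YGK3) was at chrXV:50001-75000, with CDC33 (the cap-binding factor eIF4E), ARG8 (of arginine synthesis) and ARS1507, where rad52 cells had 0.995 and 1.05.

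**Figure D2:**
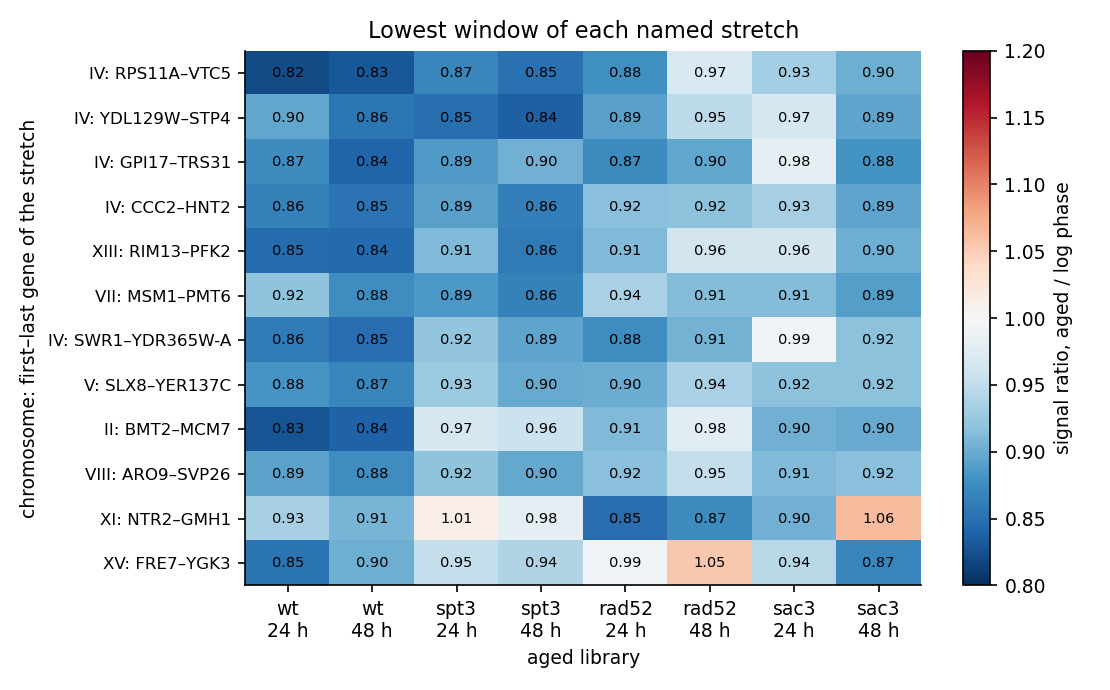
Ratio of aged to log phase signal at the lowest window of the 12 named stretches (rows, by chromosome and first and last gene) in the 8 aged libraries (columns); blue is under 1, red above 1, and each cell prints its ratio. The 10 upper rows are blue in all 8 libraries, from 0.821 to 0.994; the 2 lowest rows, on XI and XV, each have at least 1 library above 1.

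Members were already low in log phase DNA. Their median log phase signal was 11125 in wild type, against 12881 in the other eligible windows, or 0.864 of it. The ratio was 0.862 in spt3, 0.872 in rad52 and 0.851 in sac3 log phase cells. In wild type 223 of the 250 members lay below the median of the other windows. Averaged over the genotypes, the log phase level was lower in members on 11 of the 11 chromosomes. The difference was smallest on VIII (log2 -0.01) and X (-0.06). The gap was wider in every aged library: members had 0.771 (24 h) and 0.770 (48 h) of the signal of the other windows in wild type, 0.787 and 0.771 in spt3, 0.815 and 0.757 in sac3, and 0.807 and 0.852 in rad52. The log phase signal is the denominator of the ratio that chose the members, so the levels are not independent of the choice. In the lists chosen without a genotype, the log phase signal of that genotype was 11501 in the chosen windows, against 12817 in the rest, for wild type, 11012, against 13036, for spt3, 11281, against 13011, for rad52 and 11012, against 12960, for sac3.

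The difference between ages also showed in the slope of aged on log phase log2 signal across all 1507 eligible windows, a description in which windows share reads. In wild type it was 1.50 (24 h) and 1.52 (48 h), then 1.47 and 1.49 in spt3, 1.16 and 1.60 in sac3, and 1.30 and 1.03 in rad52. The library with the slope nearest 1, rad52 at 48 h, had the highest member median (0.978). The next lowest slope, in sac3 at 24 h, went with the next highest median (0.965). The order did not hold throughout: sac3 at 48 h, with the steepest slope, had 0.921, above 0.902 and 0.900 in wild type. Members were low in log phase, so the slope and the member median are not independent. What moves the slope was not tested.

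**Figure D3:**
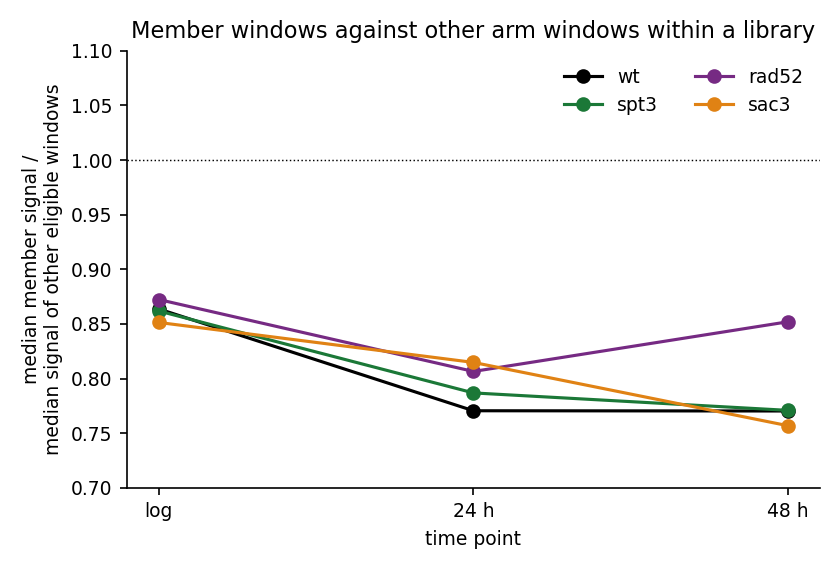
Median signal of the member windows divided by the median signal of the other eligible arm windows of the same library, at log phase, 24 h and 48 h, with 1 point per library and 1 line per genotype. All 4 genotypes start between 0.851 and 0.872 in log phase; at 48 h wild type, spt3 and sac3 lie between 0.757 and 0.771 and rad52 at 0.852.

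The highest log phase levels among members were at 1 stretch. The 4 members at chrVIII:195001-235000, all touching CUP1, the copper metallothionein gene that is repeated in tandem, had wild-type log phase signals of 21342 to 21872, while no other member exceeded 16043. They were picked out after their values were seen. Their median ratios were 0.918 and 0.984 in rad52 cells and 0.899 and 0.916 in wild type. In spt3 cells they were 0.893 and 0.920, and in sac3 cells 0.918 and 0.925. A Ty element or LTR was touched by 93 of the 250 members (37.2%), against 375 of the 1257 other eligible windows (29.8%). Overlapping windows count the same element repeatedly. Counted by element, 69 of 274 LTRs or Ty elements lay wholly inside member windows (25.2%), which cover 26.1% of the eligible sequence.

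Members were poorer in GC. Their median GC content was 37.6% (quartiles 37.1% and 38.1%), against 38.2% (37.7% and 38.8%) in the other eligible windows, and it was lower on 10 of the 11 chromosomes, XIII being the exception. With the eligible windows split into 4 bins of rising GC content, members made up 31.3%, 18.4%, 12.8% and 3.71% of the bins. Within each bin members had the lower log phase signal (averaged over the genotypes), from 11173, against 12667, in the lowest to 11284, against 13276, in the highest. In 4 bins of rising log phase signal members made up 39.5%, 16.2%, 8.78% and 1.86%, and the 7 members of the highest bin include the CUP1 windows. After a GC correction of the ratios, 174 of the 250 windows were chosen again, the new list had the higher GC content (38.2%, against 38.1%), and its wild-type log phase signal was still 11257, against 12854. Coding sequence filled a median of 71.7% of a member window, against 75.8% of the others.

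**Figure D4:**
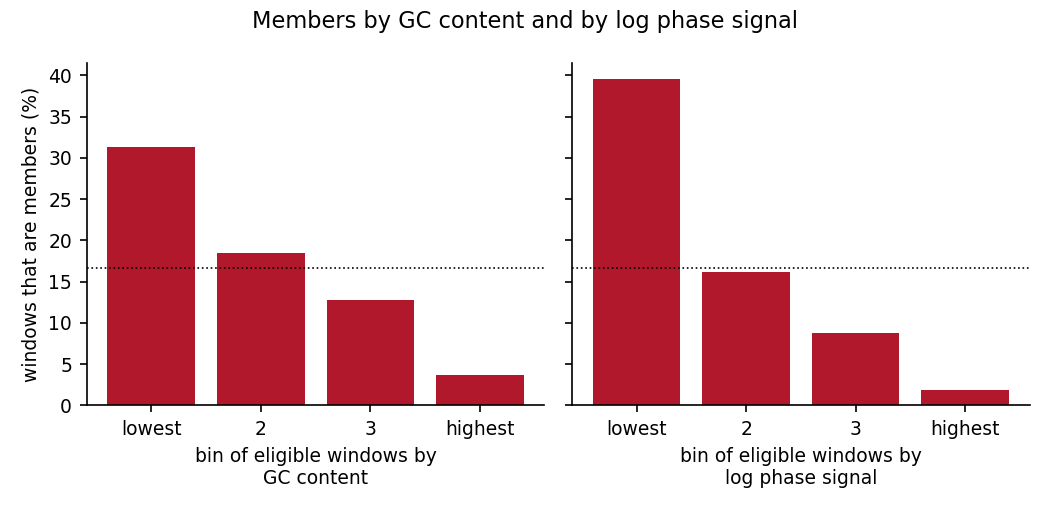
Percentage of eligible arm windows that are members, in 4 bins of the 1507 windows by GC content (left) and by log phase signal averaged over the 4 genotypes (right); the dotted line is the percentage over all of them. The bars fall from 31.3% to 3.71% with rising GC content and from 39.5% to 1.86% with rising log phase signal.

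Member windows held 0.688 annotated origins on average, against 0.619 in other eligible windows, a difference of 0.0691 that was 0.118 in windows without overlap, and 56% of members held at least 1, against 52.2%. The mean was higher in members on 8 of the 11 chromosomes but lower on II, VII and XI. Runs of at least 10 A or T averaged 4.86 per window, against 4.76, and members lay a median of 270 kb from the centromere, against 248.5 kb.

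By position, member windows wholly covered 1011 of the 4032 protein-coding genes inside eligible windows (25.1%), which is the share to set the gene lists against. Glycolytic genes were covered for 6 of 11 (PGI1, TPI1, TDH3, PFK1, ENO2 and PFK2, or 54.5%) and cytosolic ribosomal protein genes for 37 of 99 (37.4%). Homologous recombination genes were covered for 5 of 13 (RAD59, RAD55, XRS2, SRS2 and SGS1), origin licensing and firing genes for 5 of 16 (ORC2, MCM7, DBF4, DPB11 and ORC1) and SAGA and TREX-2 genes for 6 of 21 (SPT7, TAF5, SEM1, ADA2, TRA1 and SPT20). Below that share were nuclear pore genes with 4 of 23 and cohesin and condensin genes with 1 of 6 (BRN1). Histone genes had 0 of 6. Of the listed genes for silencing and the fork barrier of the ribosomal DNA, 1 of 9 was covered (LRS4). That list leaves out NSI1, a ribosomal DNA silencing gene in the lowest window of all, so its share is not read as low. tRNA genes (49 of 184), snoRNA genes (13 of 53), origins (52 of 200) and LTRs or Ty elements (69 of 274) lay between 24.5% and 26.6%. Lists of a few genes that sit side by side share windows, so these shares have no test.

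The members were also read between 24 h and 48 h. The median 48 h over 24 h ratio of the members was 0.995 in wild type, 0.985 in spt3, 0.961 in sac3 and 1.05 in rad52, against 1.01, 0.994, 1.03 and 0.991 in the other eligible windows of the same genotypes. Both ages entered the choice, and the spread of the signal over eligible windows differed between them (SD of log2 signal 0.268 at 24 h and 0.395 at 48 h in sac3, 0.292 and 0.235 in rad52), so these medians are not independent of it. In limma, with the 4 genotypes as replicates over 2423 nuclear windows, 0 windows were called at an adjusted p under 0.05 (0%), members included. At an unadjusted p under 0.05 there were 7 windows in all (0.289%) and 0 members. A p above the threshold does not show that the members had stopped changing. Per the paper rad52 cells had ended replicative life before 24 h, so their pair of libraries does not stand for further divisions.

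The genotypes were compared on the mean change at 24 h and 48 h from log phase. The log2 difference, wild type minus the mean of the 3 mutants, had a median of -0.07 in the members, against -0.01 over all nuclear windows. The ratios behind it also chose the members, so nothing is read from the members' values. Over all nuclear windows limma called 13 of 2423 (0.537%), all of them on chromosome XII and so 0 among the members. The count rested on single genotypes: it was 0 without spt3 and 168 without rad52. At an unadjusted p under 0.05 there were 41 windows in all (1.69%). Wild type has 1 value in this fit and is assumed to vary like the mutants, and a p above the threshold does not show that wild type and mutants changed alike.

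In log phase the mutants were close to wild type over the members. The median ratio of mutant to wild-type signal was 0.995 for spt3, 1.02 for rad52 and 0.993 for sac3, against 0.990, 1.00 and 0.994 in the other eligible windows. Single members ranged from 0.923 in sac3 to 1.09 in rad52. None of the members holds SPT3, RAD52 or SAC3, so no deletion enters these values.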

How the data were processed

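Genomic DNA of 12 yeast libraries (4 genotypes at log phase, 24 h and 48 h) was sequenced by the authors as 75-base single-end reads. The authors deposited a table of size-factor normalised read signal in windows of 25 kb every 5 kb. Per their methods reads were trimmed with Trim Galore 0.6.6 and aligned to R64-1-1 with Bowtie 2, while the submitters' processing notes name HISAT2 2.1.0; which aligner made the table is not settled. Windows with repeats, which the methods say were excluded, are in the table and were kept. Annotation and sequence came from the RefSeq R64 reference; in all chromosomes its length matched the end of the table's last window.

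Ratios are log2 of deposited signals with no pseudocount. At least 99.9% of values were whole multiples of a step within 0.1, taken as 1 read and used for depth only. limma 3.58.1 (R 4.3.3) was run with lmFit and eBayes, two-sided with Benjamini-Hochberg adjustment over all nuclear windows. It was tried on simulated data with larger changes than the members had and with windows that shared no reads. That trial does not show how small a change the tests could call here. Other steps used Python 3.11.15, pandas 2.3.3 and statsmodels 0.14.6. The GC correction was a lowess fit (fraction 0.5) over nuclear windows outside chromosome XII. Named stretches are the 10 with the lowest single-window mean, the longest, and those with the lowest 48 h window of each genotype. The members, the gene lists and the tests were chosen with earlier results of these data known. Alternatives were recentring, GC correction, leaving out repeats, other numbers of members, other summaries, a pseudocount of 1, a filter on low signal, windows without overlap and leaving out a genotype.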

Additional observations from a re-analysis of the deposited data

Results flagged for a closer look

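Over the members, the median 48 h over 24 h ratio was 1.05 in the rad52 mutant, while wild type, spt3 and sac3 had 0.995, 0.985 and 0.961. It was picked out because 1 genotype moved up and the others down. Each value rests on 1 pair of libraries, and both ages entered the choice of the members. The paper describes rad52 cells as no longer dividing between these ages. The difference between genotypes was not tested.

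In 3 of the 36 stretches, 1 genotype was above 1 at both ages while another was under 1 at both, again untested. In chrXVI:755001-805000 (6 windows, RRG8 to RRP9) sac3 had medians of 1.02 and 1.07, while wild type had 0.858 and 0.876 and spt3 0.908 and 0.906. In the single window from BRN1 to YBL086C on chromosome II, rad52 had 1.03 and 1.03 and spt3 0.821 and 0.882. In the single window from CWC2 to ASF2 on chromosome IV, spt3 had 1.05 and 1.01, while wild type, rad52 and sac3 lay between 0.878 and 0.960. A ratio of 1 is not each library's own level. Medians over all eligible windows were 1.02 and 1.01 in spt3, 1.02 and 1.03 in sac3 and 1.00 and 1.00 in rad52. Thus spt3 at 48 h (CWC2 to ASF2) and sac3 at 24 h (RRG8 to RRP9) lay about at their library's level.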

How the results depend on the processing

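The median log2 ratio of the members (-0.10) was -0.12 with 125 members and -0.07 with 500, and lay between -0.11 and -0.08 when a genotype was left out. Its sign is fixed by the choice, since each alternative list was again the lowest windows. Recentring each library chose the same 250 windows, by construction. Of the 250, 174 were chosen again after GC correction, and 150 stayed after windows touching repeats were dropped, the other 100 being barred. The number with all ratios under 1 was 105 to 143 across the other alternatives with 250 members and all 8 libraries, 149 to 193 when a genotype was left out (6 ratios), and 189 without the rad52 48 h library, a setting added after the data were seen. With wild type left out of the choice, its median ratio was 0.935 after GC correction, against 0.909 without it. Its median over all eligible windows was also higher after the correction, at 1.00 against 0.990. The cause was not tested. Origins per window exceeded other windows by 0.118 in windows that do not overlap, against 0.0691 in all, with 55 members left. Both limma tests, run for the 250 members with recentring, GC correction, a trend, a pseudocount, a low-signal filter, no repeats, no overlap or a genotype left out (mutants only in the wild type test), called 0 members. Over all windows the wild type test called 3 without repeats, 2 without overlap, 0 without spt3 and 168 without rad52, against 13. A single library per genotype and time limits every value. Depth, at a counting error of 1.13% to 1.55% in a ratio for the median member window, bears on windows near the limit of the list or near a ratio of 1.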
